A study of Mus musculus with 84 samples.

Results

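The 10 genes described here, Pon1, Pon2, Pon3, Bche, Aadac, Pnpla6, Lypla1, Faah, Mgll and Apeh, code for paraoxonases and serine hydrolases that hydrolyse organophosphates or are bound by them. They were taken by symbol, and all 10 were found among the 17695 genes of the count table. All 10 were also among the 10415 genes whose median count over all mice was above 8, which were the genes tested. Liver RNA of 84 male B6C3F1 mice, 8 weeks old at the start, was measured with TempO-Seq, in which pairs of detector oligos are ligated on a transcript, amplified and sequenced. For 7 days the mice ate AIN-93G diet without an organophosphate pesticide (OPP), the control, or with fenthion (FT) at 2.5, 5, 10 or 20 ppm, methidathion (MT) at 10, 25, 50 or 100 ppm, or parathion (PT) at 20, 40 or 80 ppm. The estimated intakes were 0.375 to 3 mg/Kg-bw/day for FT, 1.5 to 15 for MT and 3 to 12 for PT. Each of the 12 groups held 7 mice, 2 from experimental block 1, 3 from block 3 and 2 from block 4. Livers of 2 control, 2 FT 20 ppm, 2 MT 100 ppm and 1 MT 10 ppm mouse had their RNA isolated at the U.S. EPA, and all others at a contract laboratory, Expression Analysis (EA).

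FT, MT and PT are phosphorothioate or phosphorodithioate esters that become potent inhibitors once liver enzymes replace the sulfur of the P=S bond with oxygen. The oxons so formed phosphorylate the active serine of acetylcholinesterase, the target behind their acute toxicity, and of many other serine hydrolases. Butyrylcholinesterase, made in the liver and secreted into plasma, is used up as it binds an oxon, whereas paraoxonase 1, carried in plasma on high density lipoprotein, hydrolyses oxons with calcium in place of an active serine. Transcript levels, as measured here, say nothing about how much of an enzyme was inhibited.

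In most members the serine that an oxon attacks sits in the motif Gly-X-Ser-X-Gly, where X is any residue. The coding bases around it are shown because this is the site that these enzymes have in common, and because the paraoxonases lack it. In each line the 5 codons of the motif are in capitals, with 6 coding bases on either side in lower case, 5′ to 3′ on the coding strand, from the GENCODE reference transcripts of GRCm39:
Bche: atttttGGAGAAAGTGCAGGGgcagct
Aadac: gtgtctGGAGACAGTGCTGGTggaaac
Lypla1: ttgggaGGATTTTCTCAGGGAggcgcc
Pnpla6: gtgggaGGCACATCCATAGGTtccttc
Mgll: ctcctgGGCCACTCCATGGGCggtgcc
Apeh: cttatgGGTGGTTCCCATGGTgggttc

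The serine codon of Bche lies at chr3:73608744-73608746 on the minus strand, in exon 2 of 4, and codes for residue 227 of 603. That of Aadac lies at chr3:59945893-59945895 on the plus strand, in exon 4 of 5, at residue 188 of 398. In Lypla1 it lies at chr1:4907292-4907294 on the plus strand, in exon 6 of 9, at residue 119 of 230. In Pnpla6, the neuropathy target esterase, it lies at chr8:3586936-3586938 on the plus strand, in exon 26 of 34, at residue 966 of 1327. In Mgll it lies at chr6:88785124-88785126 on the plus strand, in exon 4 of 8, at residue 122 of 303, and in Apeh at chr9:107963460-107963462 on the minus strand, in exon 19 of 22, at residue 587 of 732. Mgll and Apeh each held 2 matches, of which the known active serine is shown. Faah held 2 overlapping matches within its amidase signature, and its nucleophile lies elsewhere, so neither is shown. Pon1, Pon2 and Pon3, with proteins of 355, 354 and 354 residues, held 0 matches. Of 21995 reference coding sequences, 18.1% held at least 1 match, so the motif alone does not mark a serine hydrolase. The paraoxonases lie side by side on the minus strand of chromosome 6 (GRCm39), Pon1 at chr6:5167120-5193946, Pon3 at chr6:5220758-5256301 and Pon2 at chr6:5263103-5298476.

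The libraries held 6950381 to 15300589 counts. Levels are given as CPM, the count of a gene scaled to the total of its mouse, and on this scale the smallest number taken as measured, 3 counts, was 0.196 to 0.432 CPM. The members lay far above this, with median counts from 86 (Pon2) to 20792 (Aadac). Counts come from probes whose efficiency differs between genes, so levels are compared between mice and not between genes. Estimated counts that were not whole show where reads were divided between genes or transcripts, and these made up 97.6% of the values of Lypla1, 66.7% of Pon1, 15.5% of Apeh and 10.7% of Pnpla6, whose levels are therefore less certain, 3.6% of Mgll, and none of the other 5 members. In bulk liver RNA, fewer cells of a type and less RNA per cell cannot be told apart. A mouse of the highest PT dose, PT 80 ppm replicate 1 of block 1, stood apart from the other 6 in several members and in other genes, among them the estrogen sulfotransferase Sult1e1 at 3440 CPM against 0.216 to 39.6 CPM, which was singled out after its values were seen. Some results at this dose are also given without this mouse, and for the members its own value is given where it lay outside the other 6.

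At PT 80 ppm, Bche, Pon1 and Apeh rose, and no member fell by the test. Bche and Pon1 were each 1.64-fold higher than in control, with 95% intervals from 1.42 to 1.90 and from 1.34 to 2.02. Apeh was 1.32-fold higher (1.12 to 1.55). With 18.6% of all tested genes called at this dose (9.75% higher and 8.89% lower), 3 of the 10 members, all higher, were called by edgeR's quasi-likelihood test at an adjusted p under 0.05. The median log2 fold change of the 10 members was 0.09, and that of all tested genes 0.01.

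**Figure D1:**
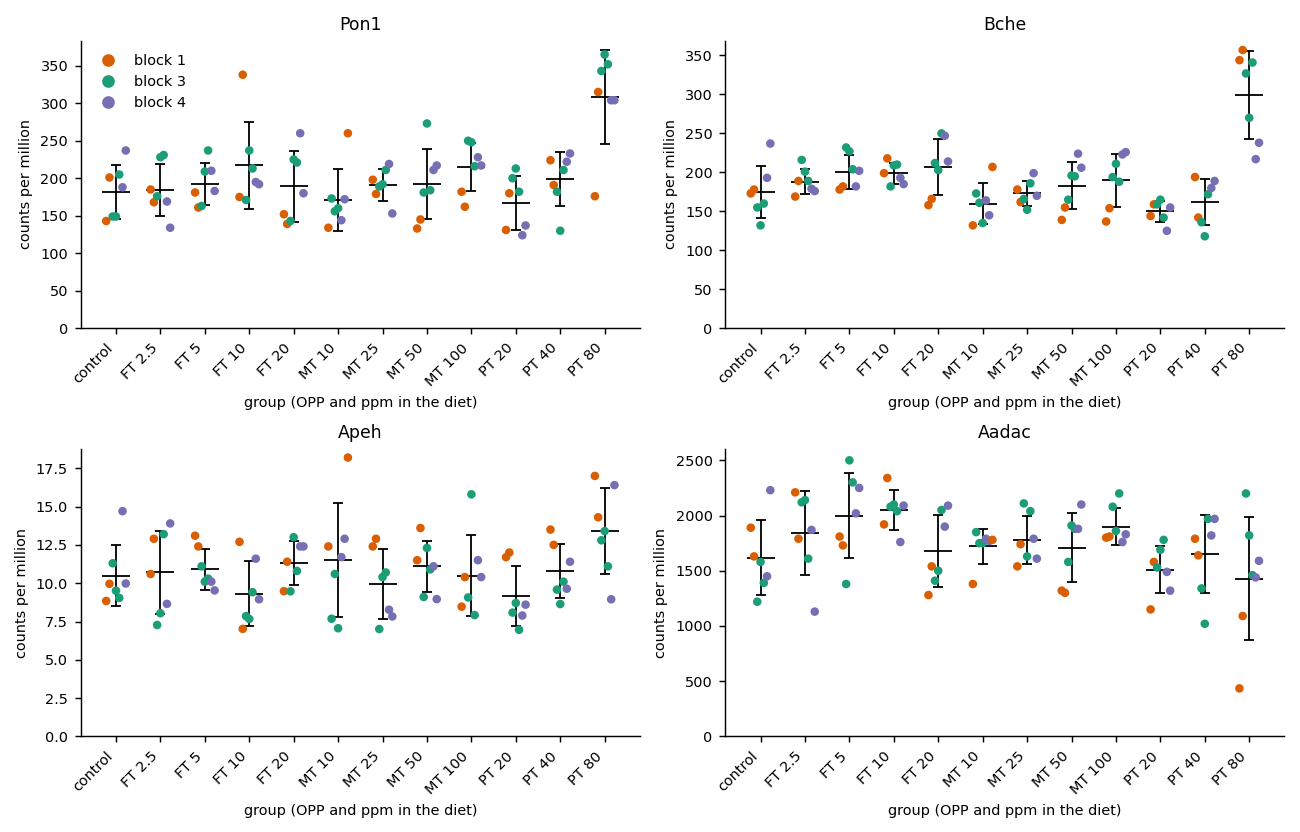
CPM of Pon1, Bche, Apeh and Aadac (vertical axes) in each mouse of the 12 groups (horizontal axes), coloured by experimental block, with the mean and SD of each group in black. At PT 80 ppm 6 of 7 mice lay above every control mouse for Pon1 and for Bche, while Apeh and Aadac overlapped with control, and the lowest Aadac value, 435 CPM, belongs to PT 80 ppm replicate 1.

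Pon1, the oxon-hydrolysing paraoxonase, had a lowest, median and highest value of 143, 188 and 237 CPM in control mice and of 176, 315 and 365 CPM at PT 80 ppm. The groups overlapped through a single mouse, PT 80 ppm replicate 1 at 176 CPM, and the other 6 mice lay between 304 and 365 CPM, above every control. The means were 182 ± 35.7 CPM in control and 308 ± 63 CPM at PT 80 ppm (SD, n = 7 each), a log2 fold change of 0.72 ± 0.15 (SE, adjusted p = 0.000227). Within blocks, the log2 ratio of the means was 0.45 in block 1, 0.93 in block 3 and 0.54 in block 4. Without block 3 the difference no longer passed the test, with a log2 fold change of 0.55 (adjusted p = 0.0718).

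Pon2 and Pon3, the neighbouring paraoxonases, which act mainly on lactones and have little activity on oxons, did not pass the test at PT 80 ppm. Pon2 lay between 4.29 and 9.86 CPM in control (median 9.55) and between 4.96 and 9.75 CPM at PT 80 ppm (median 8.45), a log2 fold change of -0.20 (95% interval -0.47 to 0.07). Pon3 lay between 13.5 and 32.1 CPM in control (median 25.5) and between 17.7 and 29.9 CPM at PT 80 ppm (median 27.3), a log2 fold change of -0.04 (-0.26 to 0.18). Both genes overlapped fully between the groups, and the interval of each lay below the fold change of Pon1.

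The difference among the paraoxonases was tested within mice as the log2 ratio of their counts, which needs no scaling for depth. These ratios were chosen after the same mice had shown Pon1 called and Pon2 and Pon3 not. Their p-values are therefore not independent support for that difference. The log2 ratio of Pon1 to Pon2 was 4.46 ± 0.44 in control and 5.31 ± 0.51 at PT 80 ppm (SD, n = 7 each), a difference of 0.84 (exact permutation test, two-sided, p = 0.00816, adjusted over 2 ratios 0.00816). That of Pon1 to Pon3 was 2.86 ± 0.33 in control and 3.53 ± 0.43 at PT 80 ppm, a difference of 0.68 (exact permutation test, two-sided, p = 0.00699, adjusted 0.00816). In both ratios 5 of 7 mice at PT 80 ppm lay above every control mouse. This test does not adjust for block or RNA isolator. In EA mice alone, 7 at PT 80 ppm and 5 controls, the differences were 0.73 and 0.58 (exact permutation p = 0.0303 for each, adjusted 0.0303). Without PT 80 ppm replicate 1, they were 0.997 and 0.793 (exact permutation p = 0.00233 for each, adjusted 0.00233). In blocks 1, 3 and 4, the difference was 0.35, 0.97 and 1.14 for Pon1 to Pon2, and -0.10, 1.28 and 0.55 for Pon1 to Pon3, so the latter was not higher in block 1. With labels permuted within blocks only, over 720 arrangements, the exact permutation p-values were 0.0111 and 0.0167 (adjusted 0.0167 for both). These ratios differ between genes in probe efficiency, so that the change between groups is interpretable and the ratio itself is not.

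Bche, which codes for butyrylcholinesterase, lay between 132 and 237 CPM in control (median 173) and between 217 and 357 CPM at PT 80 ppm (median 327). Of the 7 mice at PT 80 ppm, 6 lay above every control, and PT 80 ppm replicate 1, at 344 CPM, was among the high ones. The means were 175 ± 33.3 and 299 ± 56.4 CPM (SD, n = 7 each), and the adjusted p of 5.31e-07 was the lowest of the 10 members. The log2 ratio of the means was 0.91 in block 1 and 0.93 in block 3 but 0.11 in block 4, where the control mice were at a mean of 207 CPM after TMM scaling. Bche passed the test in all 25 alternative fits, with log2 fold changes from 0.42 to 0.93. These fits share most of their mice, so they do not settle the difference between the blocks.

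Aadac, the arylacetamide deacetylase of the endoplasmic reticulum and the member with the most counts, had the lowest mean of its 12 groups at PT 80 ppm. This rank rests on PT 80 ppm replicate 1 at 435 CPM, while the other mice of the group lay between 1090 and 2200 CPM. The values of Aadac were 1220, 1580 and 2230 CPM in control (lowest, median and highest) and 435, 1460 and 2200 CPM at PT 80 ppm. The groups overlapped, with 2 of 7 mice below every control, the lowest of them PT 80 ppm replicate 1 at 435 CPM. The log2 fold change of -0.36 (-0.67 to -0.05) did not pass the test (adjusted p = 0.0961). The log2 ratio of the means was -1.26 in block 1, 0.23 in block 3 and -0.26 in block 4, so the direction was not shared by the blocks. The log2 fold change was -0.19 without PT 80 ppm replicate 1 (adjusted p = 0.4) and -0.07 without block 1 (adjusted p = 0.845). Aadac passed the test, lower, without block 3 (-0.75, adjusted p = 0.0208), without PT 80 ppm replicate 3 (-0.47, adjusted p = 0.0254) and with the deposited adjusted values (-0.36, adjusted p = 0.00349).

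The lysophospholipases Pnpla6 and Lypla1 did not pass the test at PT 80 ppm. Pnpla6, whose inhibition and aging precede delayed neuropathy after some organophosphates, lay between 19.6 and 34.5 CPM in control (median 26.8) and between 21.5 and 44.2 CPM at PT 80 ppm (median 25.4). Its highest value, 44.2 CPM, was again that of PT 80 ppm replicate 1, and the other 6 mice lay between 21.5 and 30.6 CPM, within the control range. Its log2 fold change was 0.14 (-0.07 to 0.35). Lypla1, an acyl-protein thioesterase, lay between 72.9 and 242 CPM in control and between 59 and 221 CPM at PT 80 ppm, a log2 fold change of -0.02 (-0.32 to 0.28).

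Faah and Mgll, which hydrolyse the endocannabinoids anandamide and 2-arachidonoylglycerol, also did not pass. Faah lay between 66.8 and 97.0 CPM in control (median 80.1) and between 83.1 and 113 CPM at PT 80 ppm (median 92.0). The 2 groups overlapped, with 3 of 7 mice above every control, and the log2 fold change was 0.15 (-0.02 to 0.32, adjusted p = 0.242). Faah passed with limma on log2(CPM + 1), at 0.26 (adjusted p = 0.0263). Mgll was the most variable member at this dose, from 5.52 CPM in PT 80 ppm replicate 1 to 26.5 CPM, against 11.3 to 21.4 CPM in control, and its log2 fold change was 0.05 (-0.31 to 0.40).

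Apeh, the acylpeptide hydrolase, which removes acylated residues from peptides and is sensitive to dichlorvos and related oxons, lay between 8.84 and 14.7 CPM in control (median 9.96) and between 8.95 and 17 CPM at PT 80 ppm (median 13.4). Only 2 of 7 mice lay above every control, 1 of them PT 80 ppm replicate 1 at 17 CPM. The log2 fold change was 0.40 ± 0.12 (SE, adjusted p = 0.0128). The call was lost without block 1 (0.27, adjusted p = 0.332), without block 3 (0.43, adjusted p = 0.0637) and without covariates (0.28, adjusted p = 0.169). Apeh was also 1 of 3 members called between EPA and EA mice, a comparison in which 38.7% of all genes were called, with a log2 difference of 0.39 (adjusted p = 0.000649), beside Lypla1 with 0.35 (adjusted p = 0.0164) and Pnpla6 with 0.28 (adjusted p = 0.00563). The highest control value of Apeh, 14.7 CPM, came from an EPA mouse, while all mice at PT 80 ppm were isolated at EA. In EA mice alone, the same 3 members passed at PT 80 ppm, Bche at a log2 fold change of 0.65, Pon1 at 0.59 and Apeh at 0.40. Between blocks, where 40.0% of all genes were called in block 3 against block 1 and 38.1% in block 4 against block 1, Aadac (log2 differences 0.25 and 0.23), Lypla1 (0.19 and 0.27) and Bche (0.127 and 0.135) were higher and Apeh was lower (-0.24 and -0.16) in blocks 3 and 4 than in block 1, and Pon1 was higher in block 3 (0.22).

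**Figure D2:**
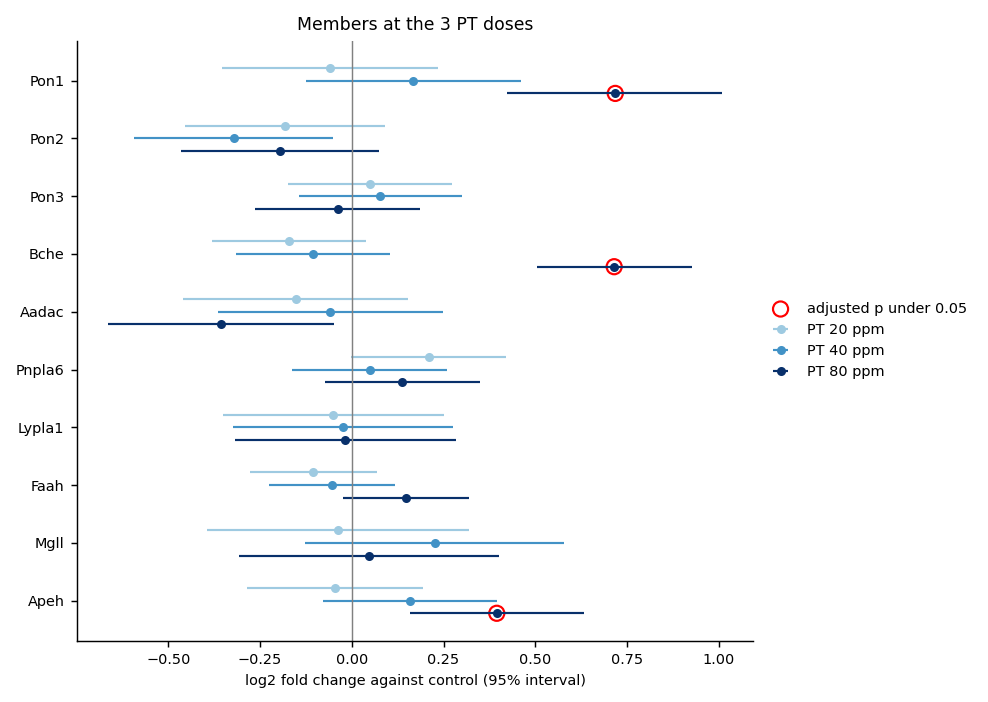
Log2 fold change against control (horizontal axis) of each member (vertical axis) at 3 PT doses, with 95% intervals from the edgeR fit over all mice and red circles where the adjusted p was under 0.05. Pon1, Bche and Apeh were circled at 80 ppm, and no member at 20 or 40 ppm.

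The members were then followed over the PT doses. Over any PT dose, where 19.6% of all genes were called, Bche (adjusted p = 3.31e-11), Pon1 (3.88e-05) and Apeh (0.00984) passed. For a linear trend, where 23% of all genes were called, the same 3 members passed, with slopes per 10 ppm of 0.10 ± 0.01 for Bche, 0.10 ± 0.02 for Pon1 and 0.06 ± 0.01 for Apeh on the log2 scale (SE). The change was not spread evenly over the doses. Mean Bche was 175 CPM in control, 150 CPM at PT 20 ppm, 162 CPM at PT 40 ppm and 299 CPM at PT 80 ppm. At PT 20 ppm it lay between 125 and 165 CPM and at PT 40 ppm between 118 and 194 CPM, so that every mouse at PT 80 ppm lay above every mouse at both lower doses. The fold change of Bche was 0.89 at PT 20 ppm (0.77 to 1.03) and 0.93 at PT 40 ppm (0.80 to 1.07). Mean Pon1 was 182, 167, 199 and 308 CPM over the same groups, with fold changes of 0.96 at PT 20 ppm (0.78 to 1.18) and 1.12 at PT 40 ppm (0.92 to 1.38). Mean Apeh was 10.5, 9.14, 10.8 and 13.4 CPM. When the trend was taken over the dosed groups alone, Faah passed as well, with a slope of 0.04 per 10 ppm (adjusted p = 0.0141), so that 4 members were called beside 24.5% of all genes.

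In the other 10 dosed groups, 0 of 100 member and group pairs were called by edgeR or by DESeq2, and 9 (9.0%) had an unadjusted p under 0.05 in edgeR, beside 8.78% of the gene and group pairs over all tested genes. Of all tested genes, edgeR called 1.57% at FT 10 ppm, 0.0768% at MT 100 ppm, 0.0096% at each of FT 2.5 ppm, MT 50 ppm and PT 20 ppm, and 0.0% at FT 5 ppm, FT 20 ppm, MT 10 ppm, MT 25 ppm and PT 40 ppm. DESeq2 called 328 genes at FT 10 ppm, 96 at MT 100 ppm, 12 at FT 2.5 ppm, 4 at FT 5 ppm, 1 at each of MT 50 ppm and PT 40 ppm, and 0 elsewhere. For any FT dose (0.0768% of all genes called by edgeR), any MT dose (0.0864%), a linear trend of FT (0.0%) and a linear trend of MT (0.0672%), 0 members were called by either tool. In that order, DESeq2 called 116, 37, 0 and 23 genes. At an unadjusted p under 0.05 in edgeR these 4 tests gave Lypla1 for any FT dose, 0 members for any MT dose, 0 for the FT trend and Faah for the MT trend, beside 14.8%, 9.21%, 4.33% and 9.32% of all genes. FT 10 ppm held 4 of the 9 pairs, Pon1 (log2 fold change 0.34), Bche (0.23), Mgll (0.36) and Faah (0.18), where 17.7% of all genes had an unadjusted p under 0.05. Mean Pon1 was 217 ± 57.6 CPM there (SD, n = 7), with 1 of 7 mice above every control, replicate 2 at 338 CPM. Pon2 gave 3 of the 9, at MT 50 ppm (-0.30), MT 100 ppm (-0.29) and PT 40 ppm (-0.32). All comparisons share the 7 control mice, and Pon2 was more variable in control than in any dosed group, with an SD of 2.09 CPM around a mean of 8.41.

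**Figure D3:**
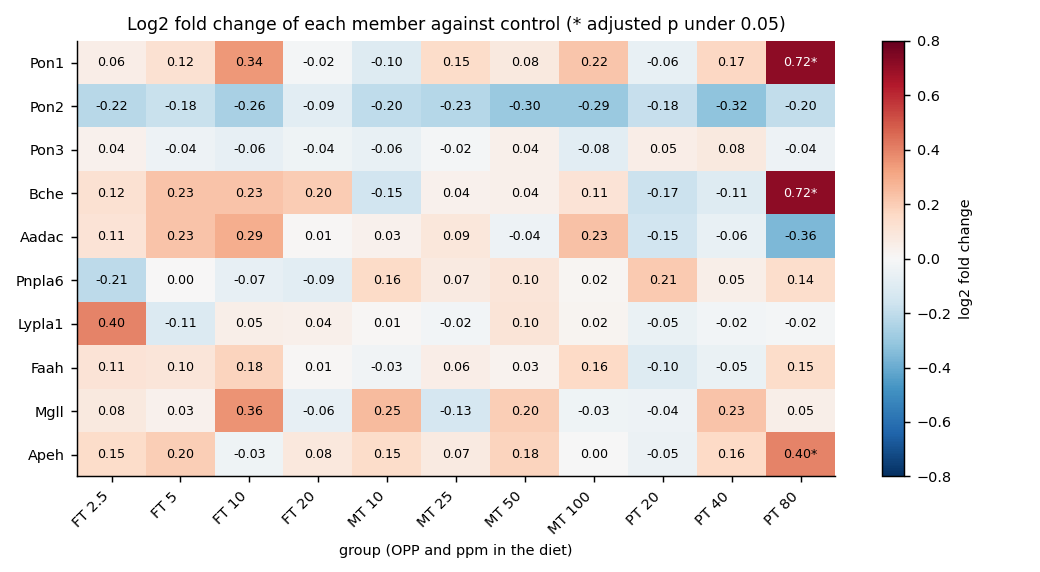
Log2 fold change against control of each member (rows) in the 11 dosed groups (columns, OPP and ppm in the diet) from the edgeR fit over all mice, red for higher and blue for lower, with an asterisk where the adjusted p was under 0.05. The 3 asterisks are those of Pon1, Bche and Apeh at PT 80 ppm, and since all columns share the same control mice, a row of a single colour is not repeated evidence.

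The order of the groups was looked at for each member. PT 80 ppm had the highest mean CPM of the 12 groups for Pon1, Bche, Faah and Apeh, and the lowest for Aadac. It shared the highest mean of Pnpla6 with MT 10 ppm (28.5 CPM). This Pnpla6 mean included PT 80 ppm replicate 1 at 44.2 CPM, while the other 6 mice lay between 21.5 and 30.6 CPM. The ranks of Faah and Pnpla6 did not hold after TMM scaling. On that scale MT 100 ppm and FT 10 ppm had higher means of Faah, and PT 20 ppm and MT 10 ppm of Pnpla6. For Bche the next group was FT 20 ppm at 207 ± 35.7 CPM and the lowest PT 20 ppm at 150 ± 13.7 CPM (SD, n = 7 each). For Pon1 the next was FT 10 ppm at 217 CPM and the lowest PT 20 ppm at 167 CPM. For these 2 genes, neighbouring groups below PT 80 ppm differed in their means by less than the larger of their SDs. For the other members, this held for all neighbours from the highest to the lowest group. The ratio of the highest to the lowest group mean was 1.99 for Bche, 1.84 for Pon1, 1.47 for Apeh, 1.45 for Lypla1, 1.43 for Aadac, 1.42 for Mgll, 1.35 for Pnpla6, 1.29 for Faah, 1.25 for Pon2 and 1.12 for Pon3. Over the FT and MT groups, the mean of Bche went from 160 ± 26 CPM at MT 10 ppm to the 207 CPM of FT 20 ppm, with 188, 201 and 199 CPM at FT 2.5, 5 and 10 ppm and 173, 183 and 190 CPM at MT 25, 50 and 100 ppm. The mean of Pon1 went from 171 ± 41.7 CPM at MT 10 ppm to the 217 CPM of FT 10 ppm, with 184, 192 and 189 CPM at FT 2.5, 5 and 20 ppm and 191, 192 and 215 CPM at MT 25, 50 and 100 ppm. Among these 8 groups, the means lay between 1680 and 2050 CPM for Aadac, 9.32 and 11.5 CPM for Apeh, 82.1 and 93.1 CPM for Faah, 13.7 and 19.5 CPM for Mgll, 21.1 and 28.5 CPM for Pnpla6, 6.85 and 8.08 CPM for Pon2 and 24 and 26.9 CPM for Pon3. The highest Lypla1 mean, 212 ± 91.7 CPM at FT 2.5 ppm, rested on replicate 7 at 412 CPM, while the other 6 mice lay between 151 and 226 CPM.

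The OPPs could be compared at the same dose in 2 pairs, FT with MT at 10 ppm and FT with PT at 20 ppm. FT carries a methylthio-substituted aryl ring, PT a nitrophenyl ring and MT a heterocycle linked through a methylene group, and FT and MT are dimethyl esters where PT is a diethyl ester. By edgeR and by DESeq2, 0 of 10 members and 0.0% of all tested genes were called in either pair, with p-values adjusted over all 10415 genes. Unadjusted p-values under 0.05 were found in edgeR for 4 members between FT and MT at 10 ppm and for 2 between FT and PT at 20 ppm, beside 7.65% and 3.4% of all genes. Bche was among both. It was 1.30-fold higher with FT than with MT at 10 ppm (95% interval 1.13 to 1.5, unadjusted p = 0.000464, adjusted p = 0.372). It was 1.29-fold higher with FT than with PT at 20 ppm (1.12 to 1.5, unadjusted p = 0.000759, adjusted p = 0.999). At 10 ppm Bche lay between 182 and 218 CPM with FT and between 132 and 207 CPM with MT, and at 20 ppm between 158 and 250 CPM with FT and between 125 and 165 CPM with PT, so both pairs overlapped. Pnpla6 was 0.86-fold with FT relative to MT (0.74 to 0.99) and 0.82-fold with FT relative to PT (0.70 to 0.94). Pon1 was 1.37-fold higher with FT than with MT at 10 ppm (1.12 to 1.67) and 1.03-fold with FT relative to PT at 20 ppm (0.84 to 1.27). The intervals of Pon3 lay between 0.86-fold and 1.16-fold in the first pair and between 0.81-fold and 1.10-fold in the second. None of these differences passed the adjustment, which does not show that the OPPs acted alike. The highest doses differ between the OPPs and were not compared.

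Related genes, of other enzymes and of high density lipoprotein, were looked at in lists at PT 80 ppm. At this dose 30.5% of all tested genes had an unadjusted p under 0.05 and 18.6% were called. Of 19 tested other esterases with known organophosphate binding, 2 rose, 2 fell and 15 did not pass, with a median log2 fold change of -0.11 against 0.01 over all genes. Afmid, which codes for kynurenine formamidase, rose by 1.05 ± 0.16 (SE, adjusted p = 1.58e-06), from 239 ± 65 to 566 ± 137 CPM (SD, n = 7 each). The carboxylesterase Ces2e fell by 1.14 (adjusted p = 2.71e-05) and Ces2a rose by 0.49 (adjusted p = 0.0038). Of 11 genes of acylglycerol, phospholipid and endocannabinoid metabolism, 3 rose and 2 fell, with a median of 0.00. Gde1 rose by 0.77 (adjusted p = 6.85e-06) and Pnpla2, the adipose triglyceride lipase, by 0.79 (adjusted p = 0.000314). Ddhd1 was lower, at -0.53 (adjusted p = 0.000186). Of 15 other lysophospholipases and acyl-protein thioesterases, 0 rose and 4 fell, with a median of -0.11. Among them Pnpla7, the closest relative of Pnpla6, fell by 0.69 (adjusted p = 7.25e-05), Lyplal1 by 0.52 (adjusted p = 0.000194) and Abhd17c by 0.28 (adjusted p = 0.0407). PT 80 ppm replicate 1 lay outside the other 6 mice in Ces2e (33.8 against 99.8 to 341 CPM), Gde1 (654 against 197 to 593 CPM), Pnpla2 (21.9 against 4.37 to 11.5 CPM) and Abhd17c (33.6 against 41.1 to 46.9 CPM). Without it, the log2 fold change was 0.64 for Gde1 (adjusted p = 9.52e-05) and 0.52 for Pnpla2 (adjusted p = 0.0129), and Abhd17c was no longer called (-0.21, adjusted p = 0.167). The esterase list then held 4 genes that rose and 1 that fell, the acylglycerol list 2 and 2, and the lysophospholipase list 0 and 2. The 18.6% of all genes belongs to the fit with this mouse, and the share without it is not given here. By edgeR and by DESeq2, 0 of 8 other serine peptidases and 0 of 12 genes of high density lipoprotein metabolism passed. Of other organophosphate hydrolysing or binding proteins, 0 of 3 passed by either tool. The medians of these lists were 0.07, 0.06 and -0.30, and in edgeR 0, 2 and 1 of their genes had an unadjusted p under 0.05.

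Hepatocyte markers were abundant in both groups. The summed level of the 7 measured hepatocyte markers lay between 15700 and 34100 CPM in control and between 26200 and 39600 CPM at PT 80 ppm, and 3 of the 7 rose. Of 7 pericentral hepatocyte markers 2 rose, with sums of 7260 to 15000 CPM in control and 16100 to 26400 CPM at PT 80 ppm. Cyp2e1 belongs to the hepatocyte and the pericentral list and was among the markers that rose in each, so these lists are not separate. Of 8 periportal markers 3 rose and 1 fell, with sums of 4690 to 7620 CPM in control and 4250 to 17900 CPM at PT 80 ppm. Of 8 tested Kupffer cell and macrophage markers 3 fell (171 to 347 CPM in control, 69.4 to 261 CPM at PT 80 ppm), and of 3 tested red blood cell markers 3 fell (24.9 to 110 CPM and 9.45 to 38.1 CPM). For endothelial markers 0 of 8 were called by edgeR or by DESeq2, with 2 at an unadjusted p under 0.05 in edgeR, and of 7 stellate cell markers 2 rose and 1 fell. The single tested cholangiocyte marker, Spp1, fell. For adipocytes, 1 of 8 markers passed the count filter and was not called, and Lep was at 0 in all 14 mice. The adipocyte sum was 9.34 to 17.2 CPM in control and 10.6 to 35.8 CPM at PT 80 ppm, with the highest value in PT 80 ppm replicate 1. Neutrophil, lymphocyte and exocrine pancreas lists had 2, 2 and 1 tested markers, of which 0 were called by edgeR or by DESeq2 and 1, 0 and 0 had an unadjusted p under 0.05 in edgeR. PT 80 ppm replicate 1 had the highest periportal sum (17900 against 4250 to 11400 CPM in the other 6) and the lowest Kupffer cell (69.4 against 140 to 261 CPM), red blood cell (9.45 against 17.1 to 38.1 CPM) and cholangiocyte sums (12.8 against 30.6 to 62 CPM). Without it, 2 hepatocyte, 1 periportal, 1 stellate and 1 endothelial marker rose, 1 Kupffer cell marker fell, and the calls of the pericentral, red blood cell and cholangiocyte lists stayed at 2, 3 and 1. For this fit too, the share of all genes called is not given here. The part of these cell type markers in the changes of Bche, Pon1 and Apeh was not tested.

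Of the 10 acute phase response genes, which the liver induces under inflammation, 6 fell at PT 80 ppm and 0 rose, with a median log2 fold change of -2.36. Their summed level was 12800 to 100000 CPM in control (median 57100) and 11000 to 21600 CPM at PT 80 ppm (median 12700). Control mice thus differed widely among themselves, and the mice at PT 80 ppm lay in the lower part of the control range or below it. Since the acute phase sum also varied within the other groups, each member's log2(CPM + 1) was correlated with the log2 of that sum over the 84 mice after group, block and RNA isolator means were removed, with p-values from 100000 permutations within groups, adjusted over the 10 members. Aadac (Pearson r = -0.64, Spearman rho = -0.78), Faah (-0.61 and -0.60) and Pon1 (-0.59 and -0.59) were lower in mice with a higher acute phase sum, each with p = 1e-05 for both measures, the smallest that these permutations can give, and an adjusted p of 3.33e-05. Bche had r = -0.46 (permutation p = 6e-05, adjusted 0.00015) and rho = -0.50 (permutation p = 2e-05, adjusted 5e-05), and Mgll r = -0.35 (permutation p = 0.0003, adjusted 0.0006) and rho = -0.34 (permutation p = 0.00328, adjusted 0.00656). For Pon2, Pon3, Pnpla6, Lypla1 and Apeh, r lay between -0.09 and 0.11, with adjusted permutation p-values from 0.571 to 0.799. Without the 2 mice farthest from the median of the sum, r was -0.58 for Aadac, -0.57 for Faah, -0.55 for Pon1, -0.49 for Bche and -0.37 for Mgll.

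The relation was computed within blocks 1, 3 and 4. In that order, r was -0.58, -0.56 and -0.72 for Pon1, -0.50, -0.78 and -0.65 for Aadac, -0.63, -0.64 and -0.54 for Faah, -0.54, -0.51 and -0.34 for Bche and -0.19, -0.34 and -0.55 for Mgll. Because acute phase transcripts took up to 155000 CPM in 1 mouse, a rise in them lowers the share left for other genes, and the median r over all 10415 genes was -0.11, with 18.9% of genes below -0.3. With TMM-scaled values, where that median was 0.01 and 6.54% of genes were below -0.3, r was -0.55 for Aadac, -0.47 for Pon1, -0.43 for Faah, -0.33 for Bche and -0.26 for Mgll, all with adjusted permutation p-values from 5e-05 to 0.0139. The part of the acute phase level in the changes at PT 80 ppm was not tested.

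**Figure D4:**
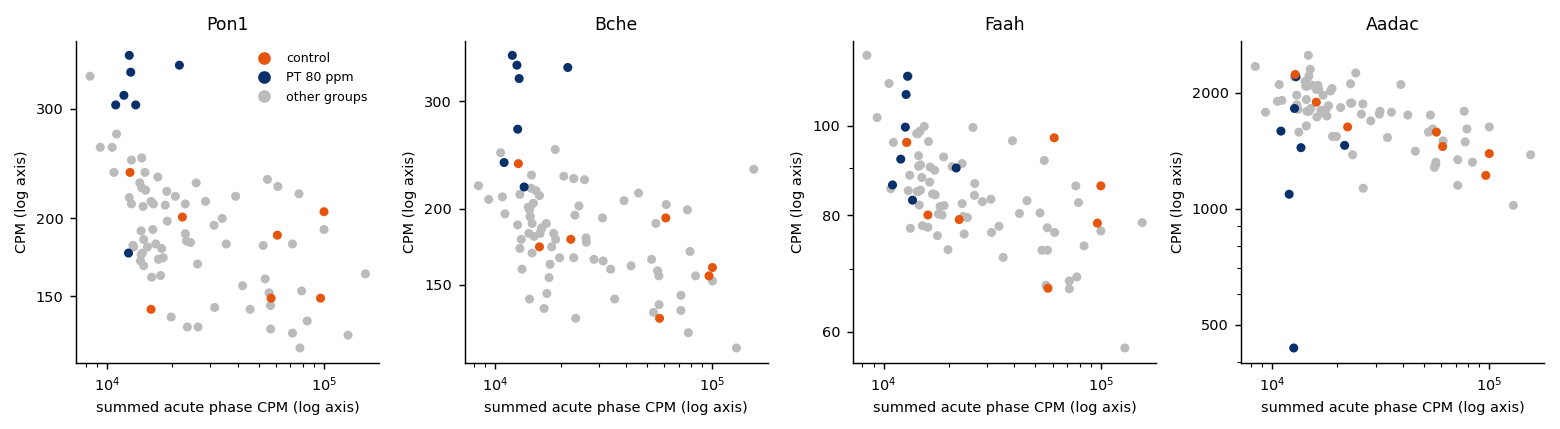
CPM of Pon1, Bche, Faah and Aadac (vertical log axes) against the summed CPM of 10 acute phase genes (horizontal log axes) in each of the 84 mice, with control in orange, PT 80 ppm in dark blue and other groups in grey. All 4 genes were lower in mice with a higher sum after group, block and RNA isolator means were removed. The plotted values are not adjusted in this way. The PT 80 ppm mice lie at the left, between 11000 and 21600 CPM. Their mean of Aadac, the lowest of the 12 groups, rests on replicate 1 at 435 CPM.

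The members also varied together within groups. After group, block and isolator means were removed, the highest Pearson r among the 45 pairs of members over 84 mice were those of Pon1 with Aadac (0.68), Bche with Faah (0.65), Pon1 with Faah (0.65), Pon3 with Lypla1 (0.52) and Pon1 with Bche (0.52). These are descriptions, since the mice share library scaling and the acute phase variation above. By the same measure over all tested genes, Pon1 was most like A1cf (0.82) and Hibadh (0.78), Bche like Dpyd (0.79) and Slc16a7 (0.75), and Aadac like Serpinf1 and Ghr (both 0.87). Lypla1 was most like Micos10 (0.90) and Pigr (0.89), Pon3 like Ppm1f (0.75) and Pebp1 (0.74), Faah like Gckr (0.80) and Mthfd1 (0.74), and Mgll like Eci1 (0.77) and Creb3l3 (0.75). Pnpla6 was most like Nap1l4 (0.74) and Dhx9 (0.68), Apeh like Pcgf3 (0.69) and Ndfip1 (0.67), and Pon2, with the lowest counts, like Taok2 (0.50) and Trim8 (0.48).

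**Figure D5:**
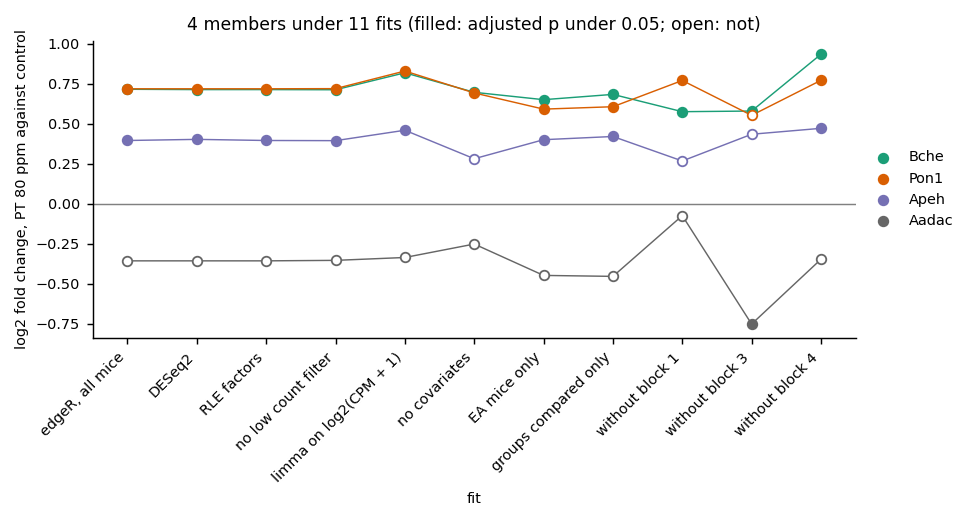
Log2 fold change at PT 80 ppm against control (vertical axis) of Bche, Pon1, Apeh and Aadac under 11 fits (horizontal axis), filled where the adjusted p was under 0.05. Bche was filled in all 11, Pon1 in all but the fit without block 3, Apeh was open in 3 fits, and Aadac was filled only without block 3.

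The log2 fold change of Pon1 was 0.83 at its highest and 0.52 at its lowest over 25 alternatives, and that of Apeh 0.47 and 0.24. PT 80 ppm replicate 1 was below the other 6 mice of its group in Pon1, Mgll and Aadac, above them in Pnpla6 and Apeh, and within their range in Pon2, Pon3, Bche, Lypla1 and Faah. Without this mouse the same 3 members passed at PT 80 ppm, in a fit whose share of all genes called is not given here.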

How the data were processed

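TempO-Seq counts of 84 mice were analysed, with groups, blocks and RNA isolators taken from the sample descriptions. The authors aligned trimmed reads with STAR to mm39, used Partek E/M to quantify Ensembl transcripts, and deposited estimated counts (expected counts) that were not normalized. They also deposited a score per gene, log2 of CPM adjusted for block and isolator, used here only as an alternative, since in those values mice alone in their combination of group, block and isolator hold their group mean. Gene names, coordinates and transcripts come from GENCODE on GRCm39, the assembly also named mm39, of another release than the authors'.

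Counts were rounded and fitted with edgeR 4.0.16 (R 4.3.3; quasi-likelihood test, TMM, genes with a median count above 8, 10415 of 17695) in a single model of the 84 mice, with group, block and isolator as terms. P-values were adjusted by Benjamini-Hochberg over all genes tested, with a threshold of 0.05. Alternatives were DESeq2 1.42.0, limma 3.58.1 on log2(CPM + 1), RLE factors, no filter, no covariates, EA mice, the compared groups only, each block left out, the trend over dosed groups and the deposited adjusted values, and, chosen after seeing the data, each control and PT 80 ppm mouse left out, also for the lists. The correlations with the acute phase sum and the within-mouse ratios of paraoxonases, with their permutation within blocks, were also chosen after seeing the data. CPM divides a count by the mouse's total count. Other computations used Python 3.11.15, numpy 2.4.6, pandas 2.3.3, scipy 1.17.1 and matplotlib 3.10.9.

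The 3 tools were tested on simulated data. The protocols describe no molecular identifiers, so the limit of 3 counts covers counting error only. The members, the lists and the tests were chosen with earlier results of these data known. The text names all 10 members, up to 3 genes per related list with the lowest adjusted p among those called at PT 80 ppm, and the 2 genes most correlated with each member. Spp1, Lep and Cyp2e1 are named from the marker lists, and were singled out after their values were seen. Replicates are mice, numbered only to name them. The labels name each mouse as a separate animal. Cages, not mice, were assigned to treatments, and the cage of each mouse was not used here, so mice that shared a cage may not be independent, while each n, error and p-value counts them as such.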

Additional observations from a re-analysis of the deposited data

Results flagged for a closer look

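In each of the 12 groups of 7 mice, the highest and the lowest value of each member were compared with the nearest other mouse, by the gap divided by the range of the group (Dixon's ratio). Of 120 sets of member and group, 16 held a mouse past the 95% critical value of this ratio for 7 samples, where chance flags about 1 in 20. The sets are not independent, since the same mice enter for every member and the members vary together. A single mouse can therefore give several flags. No difference between OPPs at a shared dose was called for any member.

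Of the 16 flags, 10 came from block 1, which held 2 of the 7 mice of each group, and some of its mice gave several flags. PT 80 ppm replicate 1 was low in Pon1 (176 CPM against 304 to 365 CPM in the other 6) and high in Pnpla6 (44.2 against 21.5 to 30.6 CPM). FT 10 ppm replicate 2 was high in Pon1 (338 against 171 to 237 CPM) and low in Pon2 (4.70 against 6.95 to 7.75 CPM) and Pon3 (13.7 against 23.7 to 29.6 CPM). MT 10 ppm replicate 7, with RNA isolated at EPA, was high in Pon1 (260 against 134 to 173 CPM), Lypla1 (239 against 139 to 174 CPM) and Faah (102 against 73.4 to 84.2 CPM). Control replicate 1 was low in Pon3 (13.5 against 24.1 to 32.1 CPM), and MT 10 ppm replicate 1 was low in Aadac (1380 against 1750 to 1850 CPM).

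In block 3, PT 80 ppm replicate 3 was low in Pon3 (17.7 against 24.8 to 29.9 CPM) and in Lypla1 (59 against 166 to 221 CPM), and PT 40 ppm replicate 4 was low in Pnpla6 (19 against 25.1 to 28.8 CPM). In block 4, FT 2.5 ppm replicate 7 was high in Lypla1 (412 against 151 to 226 CPM). Of the EPA mice of block 4, FT 20 ppm replicate 6 was high in Mgll (27.4 against 10.5 to 16.7 CPM) and control replicate 6 was high in Apeh (14.7 against 8.84 to 11.3 CPM). The cause of these values was not tested.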

How the results depend on the processing

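The 3 members called at PT 80 ppm, over any PT dose and for the PT trend were 2 to 4 under other tools, scalings, filters, covariates and sets of mice, and the counts for FT, MT, the other dosed groups and both pairs stayed at 0. The exception was the fit on the deposited adjusted values, with 7 members at PT 80 ppm and 39 genes of the related lists against 13, which were 9 to 17 in all other fits. The share of all genes called is not given for this fit or for most of the others. These counts therefore say nothing particular about the members. The fit on the deposited adjusted values called Lypla1 (-0.71, adjusted p = 6.68e-06), Pon3 (-0.36, adjusted p = 0.000506), Pon2 (-0.37, adjusted p = 0.00478) and Aadac (-0.36, adjusted p = 0.00349) as lower. Leaving out each control and PT 80 ppm mouse in turn gave 3 to 4 members at PT 80 ppm and for the trend, 3 over any PT dose and 10 to 16 list genes. At PT 80 ppm the direction of 4 uncalled members turned, all with log2 fold changes near 0. Pon3 turned with limma (0.0949) and without block 3 (0.18), Pnpla6 without block 1 (-0.0403), and Lypla1 with limma (0.0657), without block 3 (0.17) and without block 4 (0.0894). Mgll turned without covariates (-0.0211), with EA mice only (-0.019), with the compared groups only (-0.0369), without block 3 (-0.19) and with the deposited adjusted values (-0.12). Leaving out a mouse moved Pon3 between -0.17 and 0.048 (turned without control replicate 5 or PT 80 ppm replicate 3), Lypla1 between -0.15 and 0.14 (turned without control replicate 5 or 7 or PT 80 ppm replicate 3) and Mgll between -0.11 and 0.22 (turned without control replicate 3 or PT 80 ppm replicate 4 or 7). With TMM-scaled values, r with the acute phase sum turned for Pnpla6 (0.0357), Lypla1 (0.0775) and Apeh (0.0493), and Pon3 passed the test at 0.25 but not by Spearman's rho (0.19). The cause of these shifts was not tested. No paired analysis was possible because the replicate numbers only name the mice and the labels pair none across groups, while the experimental block is already a covariate. Pon2 had the lowest counts of the members, which limits its precision.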
